A study of Mus musculus with 6 samples.

Results

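The genes described here are 10 regulators and surface markers of blood and endothelial progenitors: Etv2, Fli1, Kdr, Tal1, Lmo2, Gata1, Gata2, Runx1, Cdh5 and Pecam1. They were taken by gene symbol from the platform annotation, and all 10 were measured among 19938 genes. The list was chosen with earlier results of these data known. Ranks of its members and counts against all genes are therefore descriptions, not independent support. Each had 1 probe set of its own, a probe set being the group of probes that reads one transcript on the array. The measurements came from 6 one-colour GeneChip Mouse Gene 1.0 ST arrays of V6.5 cells, an established mouse embryonic stem cell line. Each array held RNA from 1 of 3 lines, grown with doxycycline (dox, 1 µg/ml) or without it: the line with shRNA1 against Pcgf6 (hairpin 1), the line with shRNA2 against Pcgf6 (hairpin 2) and the line with a Scrambled hairpin. That gave 2 arrays of Pcgf6 hairpins with dox, 2 of Pcgf6 hairpins without dox, 1 of the scrambled hairpin with dox and 1 of it without. All cells shared the V6.5 background and were grown in serum and LIF on DR4 feeder cells, which are inactivated mouse embryo fibroblasts. The labels do not say whether a line was 1 clone or a pool, how long dox was given, or whether arrays came from separate cultures.

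During mouse development, blood and endothelium arise from mesoderm that expresses the VEGF receptor Kdr. The ETS transcription factor Etv2 acts at the top of this programme and switches on Tal1, Lmo2, Gata2, Fli1 and other genes of early blood and endothelium. TAL1 works in a complex with LMO2, LDB1 and a GATA factor, RUNX1 is needed for blood cells to emerge from endothelium, and CDH5 and PECAM1 are junction proteins of endothelial cells. Pecam1 is also a known surface protein of undifferentiated mouse embryonic stem cells. Pcgf6 is a subunit of the variant polycomb complex PRC1.6, which reaches DNA in part through MGA with MAX and through E2F6. The series title names mesodermal differentiation as a subject, so these genes bear on whether the programme was altered in undifferentiated cells.

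Values are log2 expression after RMA, with a precision set by how few arrays there are. Pcgf6 itself measured 9.39 and 9.27 in the Pcgf6-hairpin arrays with dox, against 11.56 and 11.70 in those without. In the scrambled line it measured 11.82 with dox and 11.80 without. All 14 stem cell markers lay above the median of all genes, with means between 9.89 and 12.89. Their mean with dox was 11.53 in hairpin 1, 11.43 in hairpin 2 and 11.63 in scrambled, against 11.56, 11.58 and 11.72 without. Of the 14, 7 were higher with dox in hairpin 1, 1 in hairpin 2 and 4 in scrambled. The 12 markers of mature endothelium had means between 5.26 and 9.20, and 3 of them lay above the median of all genes, which was 7.55. Of 8 measured erythroid markers, 0 lay above it. All 19 measured fibroblast markers did, and their mean differed between arrays. With dox it was 10.52 in hairpin 1, 10.80 in hairpin 2 and 10.19 in scrambled, against 10.49, 10.34 and 9.58 in the matching arrays without dox. In such mixed samples, fewer cells of a type and less RNA per cell cannot be told apart.

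Promoter sequences were available for 6 of the 10 genes in a RefSeq table of build GRCm38.p6, as 9 windows of 250 bases before to 50 bases after an annotated start. The windows shown belong to Etv2, the gene with the lowest unadjusted p of the 10 for dox against no dox over all lines, and to Runx1, the gene with the widest spread over the arrays. In the Etv2 window, capitals mark the 50 bases after the start. In the Runx1 windows they mark the CACGTG match of the upstream start and the CCGGAA match of the downstream start.
Etv2, chr7:30635803-30636102, minus strand: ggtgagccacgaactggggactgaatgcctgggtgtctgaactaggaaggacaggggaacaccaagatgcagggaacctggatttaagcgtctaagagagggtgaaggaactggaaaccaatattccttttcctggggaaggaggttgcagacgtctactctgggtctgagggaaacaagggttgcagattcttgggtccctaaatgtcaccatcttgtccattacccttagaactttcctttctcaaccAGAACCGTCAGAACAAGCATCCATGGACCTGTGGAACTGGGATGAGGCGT
Runx1 upstream start, chr16:92826025-92826324, minus strand: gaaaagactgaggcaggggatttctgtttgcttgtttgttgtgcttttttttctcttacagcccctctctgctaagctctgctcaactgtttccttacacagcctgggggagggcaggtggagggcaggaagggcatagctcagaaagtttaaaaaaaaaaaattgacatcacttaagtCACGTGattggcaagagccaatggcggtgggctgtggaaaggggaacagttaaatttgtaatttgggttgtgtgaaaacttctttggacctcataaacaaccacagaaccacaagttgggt
Runx1 downstream start, chr16:92697280-92697579, minus strand: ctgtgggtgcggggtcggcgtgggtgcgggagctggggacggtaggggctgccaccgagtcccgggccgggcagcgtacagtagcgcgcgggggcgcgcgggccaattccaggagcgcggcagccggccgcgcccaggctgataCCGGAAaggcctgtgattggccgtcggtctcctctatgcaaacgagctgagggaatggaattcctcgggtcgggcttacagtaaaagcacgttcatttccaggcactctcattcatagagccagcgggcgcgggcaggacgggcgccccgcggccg

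Both strands of each window were searched for 5 short motifs. CACGTG, the E-box read by MGA with MAX, occurred in 1 of the 9 windows, that of the upstream Runx1 start, and in 7.15% of all 32851 promoter windows. TTCCCGC, an E2F site, occurred in 1 Tal1 window and in 4.6% of all windows. AGATAA, which GATA factors bind, occurred in the other Tal1 window and in 11.2% of all. CCGGAA, an ETS site, occurred in the windows of Kdr and of the downstream Runx1 start, and in 14.9% of all. CAGCTG, an E-box that TAL1 with its partners can bind, occurred in 1 of the Gata2 windows and in 16.3% of all. The Etv2 and Gata1 windows held none of these letter strings. Such matches describe the sequence and do not show binding.

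Etv2 (probe set 10562064) was lower with dox in all 3 lines. It measured 7.62 and 7.62 in the Pcgf6-hairpin arrays with dox and 7.59 in the scrambled array with dox. Without dox it measured 8.06 and 8.27 in the Pcgf6-hairpin lines and 8.14 in the scrambled line. The 3 dox arrays lay within a narrow band, entirely below the 3 no-dox arrays. Within lines the difference was -0.44 for hairpin 1, -0.65 for hairpin 2 and -0.55 for scrambled.

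Over all lines Etv2 averaged 7.61 ± 0.02 with dox and 8.15 ± 0.11 without (SD, n = 3 each), a difference of -0.55 (SE 0.07, 95% interval -0.72 to -0.37), or 1.46-fold lower. By unadjusted p (9.8e-05 in limma) it ranked 2 among the 19938 genes, but its limma adjusted p was 0.644 and it did not pass the threshold of 0.05. No gene passed in this comparison, so 0 of 19938 (0%) and 0 of the 10 genes were called, while 1428 genes (7.16%) had an unadjusted p under 0.05. With the line as a block the limma adjusted p of Etv2 was 0.247 and again 0 genes passed. Ranked by the smallest of the 3 within-line falls, which for Etv2 was 0.436, it stood at 6 of 19938. That ranking was not among the planned comparisons and is given only as a description.

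With the Pcgf6 hairpins alone, Etv2 averaged 7.62 ± 0.00242 with dox and 8.16 ± 0.15 without (SD, n = 2 each). That difference was -0.54 (SE 0.10, limma adjusted p = 0.197). The response of the Pcgf6 hairpins minus that of scrambled was 0.01 (SE 0.18, 95% interval -0.42 to 0.43, limma adjusted p = 0.999). The interval leaves room for a sizeable difference in either direction, since the scrambled pair is a single pair. Dox itself and the presence of an induced hairpin cannot be told apart in these samples, because every dox array carried an induced hairpin.

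Fli1 (probe set 10592067), an ETS factor that acts after Etv2 and maintains blood and endothelial genes, showed no shared direction. It measured 6.83 and 6.84 with dox in the Pcgf6-hairpin lines and 6.81 with dox in the scrambled line, against 6.63, 7.03 and 6.87 without dox. The dox arrays fell inside the range of the no-dox arrays. Hairpin 1 differed by 0.20, hairpin 2 by -0.20 and scrambled by -0.06. Over all lines the difference was -0.02 (95% interval -0.26 to 0.22).

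Kdr (probe set 10530692), the VEGF receptor that marks the progenitor stage, stayed within a range of 0.24 over the 6 arrays. The median range of all genes was 0.29. The mean level of Kdr was 6.62, at percentile 35.3 of all genes. Whether it lay above background signal was not tested. With dox Kdr measured 6.62, 6.47 and 6.68 in the hairpin 1, hairpin 2 and scrambled lines, and without dox it measured 6.71, 6.62 and 6.62. The groups overlapped. The difference over all lines was -0.06 (95% interval -0.24 to 0.11, limma adjusted p = 0.836).

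**Figure D1:**
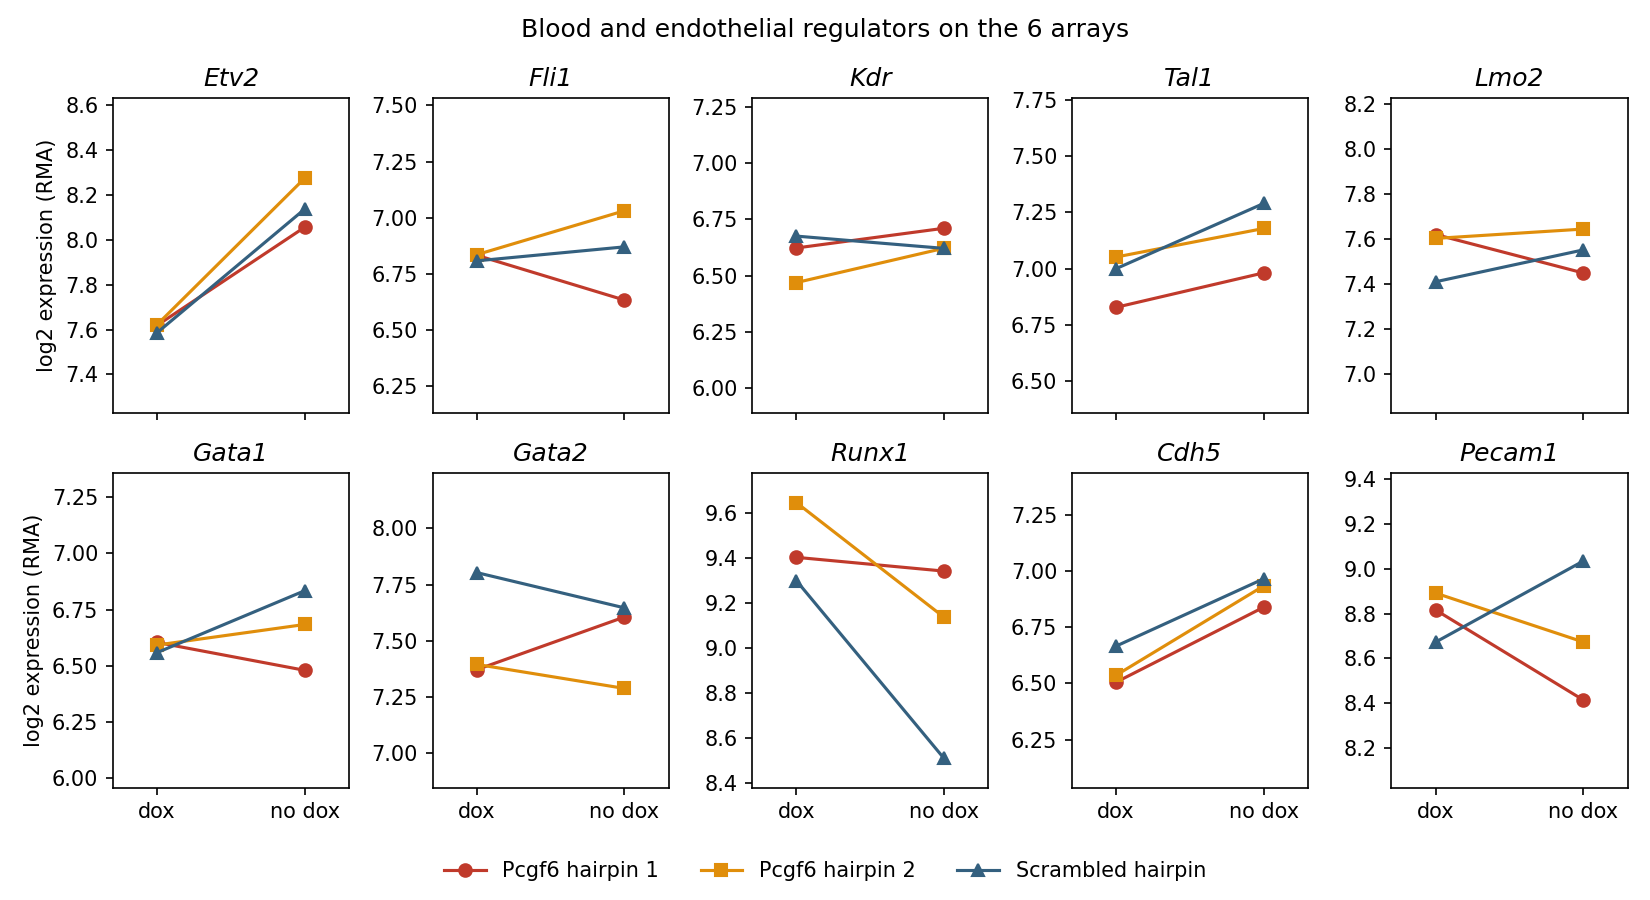
Log2 expression (RMA) of each gene on the 6 arrays, dox left and no dox right, with a line joining the arrays of 1 hairpin line. Every panel spans the same number of log2 units. Etv2 and Cdh5 are the genes whose 3 dox arrays all lie below the 3 no-dox arrays.

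Tal1 (probe set 10507131), the basic helix-loop-helix factor of the complex, was lower with dox in each line, but its groups overlapped. It measured 6.83, 7.05 and 7.0 with dox in the hairpin 1, hairpin 2 and scrambled lines, against 6.98, 7.18 and 7.29 without. The scrambled array without dox was the highest. Over all lines the difference was -0.19 (SE 0.10, limma adjusted p = 0.676), and with the line as a block the adjusted p was 0.396. The value was -0.12 without the uninduced scrambled array, and also -0.12 without the hairpin 1 array with dox. Tal1 had a Pearson's r of -0.665 with the fibroblast marker mean over the 6 arrays. With that mean in the model, an alternative chosen after the data had been seen, the Tal1 difference was -0.12. Whether feeder RNA had a part in the Tal1 values was not tested.

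Lmo2 (probe set 10474201), the LIM-domain bridge of the complex, measured 7.62, 7.60 and 7.41 with dox and 7.45, 7.64 and 7.55 without, in the hairpin 1, hairpin 2 and scrambled lines. The groups overlapped and the difference over all lines was -0.0040 (95% interval -0.20 to 0.19). Gata1 (probe set 10603417), the erythroid and megakaryocyte GATA factor, measured 6.60, 6.59 and 6.56 with dox and 6.48, 6.68 and 6.83 without, in the same order of lines. Its dox arrays lay close together inside the spread of the no-dox arrays. The difference over all lines was -0.08 (95% interval -0.30 to 0.14).

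Gata2 (probe set 10539873), the GATA factor of early progenitors, showed no shared direction with dox. In hairpin 1 it measured 7.37 with and 7.61 without dox, and in hairpin 2 it measured 7.39 with and 7.29 without. In the scrambled line it measured 7.80 with and 7.65 without dox. Both scrambled arrays were above all 4 Pcgf6-hairpin arrays. The fitted difference between uninduced Pcgf6 hairpins and uninduced scrambled was -0.20 (SE 0.15) and did not pass the limma threshold. Scrambled was a single array there, with no spread of its own. That difference was -0.36 without the uninduced hairpin 1 array and -0.041 without the uninduced hairpin 2 array. Over all lines dox against no dox gave 0.01 (95% interval -0.32 to 0.34).

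Runx1 (probe set 10441003) had the widest range of the 10 genes, 1.14 on the log2 scale. It measured 9.40, 9.65 and 9.30 with dox in the hairpin 1, hairpin 2 and scrambled lines, against 9.34, 9.14 and 8.51 without. The uninduced scrambled array stood far below the rest, and dox and no-dox arrays overlapped. The within-line differences were 0.06, 0.51 and 0.79 in hairpin 1, hairpin 2 and scrambled.

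Runx1 was thus higher with dox in all 3 lines, which held for 15.2% of all genes, and over all lines the difference was 0.45 (SE 0.20, limma adjusted p = 0.673). Without the uninduced scrambled array it was 0.21. The fibroblast marker mean ran in nearly the same order over the arrays, lowest at 9.58 in the uninduced scrambled array and highest at 10.80 in hairpin 2 with dox. Across the 6 arrays, which share lines and scaling, Pearson's r between Runx1 and that mean was 0.964, given as a description. The fibroblast marker mean was also added to the model, an alternative chosen after the data had been seen. The dox difference of Runx1 was then 0.16. Whether feeder RNA had a part in the Runx1 values was not tested.

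Before induction Runx1 measured 9.34 and 9.14 in the Pcgf6-hairpin lines and 8.51 in the scrambled line. The difference was 0.73 (SE 0.15, 95% interval 0.37 to 1.09), with a limma adjusted p of 0.295. In this comparison 0 of 19938 genes (0%) passed, and 1607 had an unadjusted p under 0.05 in limma. The fibroblast marker mean was 10.49 and 10.34 in the same uninduced Pcgf6-hairpin arrays, against 9.58 in the scrambled one. Its part in this Runx1 difference was not tested.

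**Figure D2:**
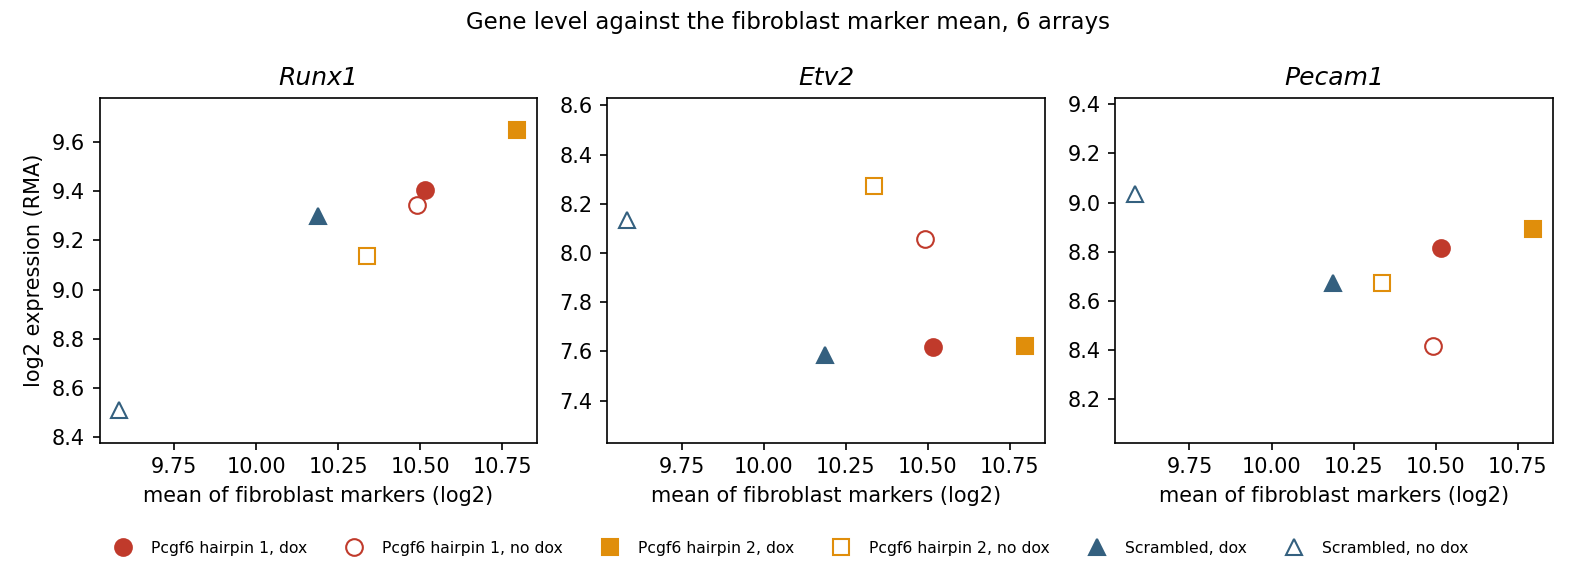
Log2 expression of Runx1, Etv2 and Pecam1 (y axis) against the mean log2 level of 19 fibroblast markers (x axis), 1 point per array; filled symbols are dox arrays and open symbols no-dox arrays. Runx1 runs in nearly the same order as the marker mean, from the uninduced scrambled array at 8.51 up to hairpin 2 with dox at 9.65. The Etv2 points split by dox.

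Cdh5 (probe set 10574438), which encodes VE-cadherin, was the other gene whose dox and no-dox arrays did not overlap. Its mean level over the 6 arrays was 6.74, at percentile 37.4 of all genes. Whether that level lay above background signal was not tested. Cdh5 measured 6.51 and 6.54 in the Pcgf6-hairpin arrays with dox and 6.67 in the scrambled array with dox. Without dox it measured 6.84, 6.93 and 6.97 in the hairpin 1, hairpin 2 and scrambled lines. The differences within lines were -0.33, -0.40 and -0.30. Over all lines Cdh5 averaged 6.57 ± 0.09 with dox and 6.91 ± 0.07 without (SD, n = 3 each). The difference was -0.34 (SE 0.07, 95% interval -0.51 to -0.17), 1.27-fold lower, with a limma adjusted p of 0.673. With the line as a block the limma adjusted p of Cdh5 was 0.345. By unadjusted p (0.00172 in limma) Cdh5 ranked 40 of 19938 genes. By the smallest within-line fall, 0.299, it ranked 32, again only as a description.

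With the Pcgf6 hairpins alone Cdh5 differed by -0.37 (SE 0.09, limma adjusted p = 0.348). Against the scrambled response the difference was -0.07 (95% interval -0.43 to 0.30, limma adjusted p = 0.999). The fibroblast marker mean was 10.52 with and 10.49 without dox in hairpin 1, where Etv2 and Cdh5 differed by -0.44 and -0.33. It was 10.80 and 10.34 in hairpin 2, where they differed by -0.65 and -0.40. In scrambled it was 10.19 and 9.58, where they differed by -0.55 and -0.30. Across the 6 arrays Pearson's r with that mean was -0.451 for Etv2 and -0.674 for Cdh5, given as a description. In the model that holds this mean as well, the differences over all lines were -0.55 for Etv2 and -0.29 for Cdh5. With the Pcgf6 hairpins alone and this mean in the model, they were -0.47 and -0.35. Whether feeder RNA had a part in the Etv2 and Cdh5 values was not tested.

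Pecam1 (probe set 10392221) was, of the 10, the gene whose response differed most between the Pcgf6 hairpins and scrambled. It measured 8.82 and 8.89 in the Pcgf6-hairpin arrays with dox, against 8.42 and 8.67 in those without. In the scrambled line it measured 8.67 with dox and 9.03 without. The within-line differences were 0.40, 0.22 and -0.36 for hairpin 1, hairpin 2 and scrambled.

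With the Pcgf6 hairpins Pecam1 differed by 0.31 (SE 0.11, 95% interval 0.04 to 0.58, limma adjusted p = 0.528). Without the uninduced hairpin 1 array that value was 0.18, and it ran up to 0.44 with another array left out. The difference from the scrambled response was 0.67 (SE 0.19, 95% interval 0.21 to 1.13), with an unadjusted p of 0.0118 and a limma adjusted p of 0.955. Before induction Pecam1 was at 8.42 and 8.67 in the Pcgf6-hairpin lines and 9.03 in scrambled, a difference of -0.49 (SE 0.14, limma adjusted p = 0.42). These values share the uninduced Pcgf6-hairpin arrays, and the comparisons with scrambled also share its uninduced array, the highest of the 6. That array also had the lowest fibroblast marker mean (9.58) and the highest stem cell marker mean, 11.72 against 11.43 to 11.63 in the others. The part of these values in the Pecam1 result was not tested.

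**Figure D3:**
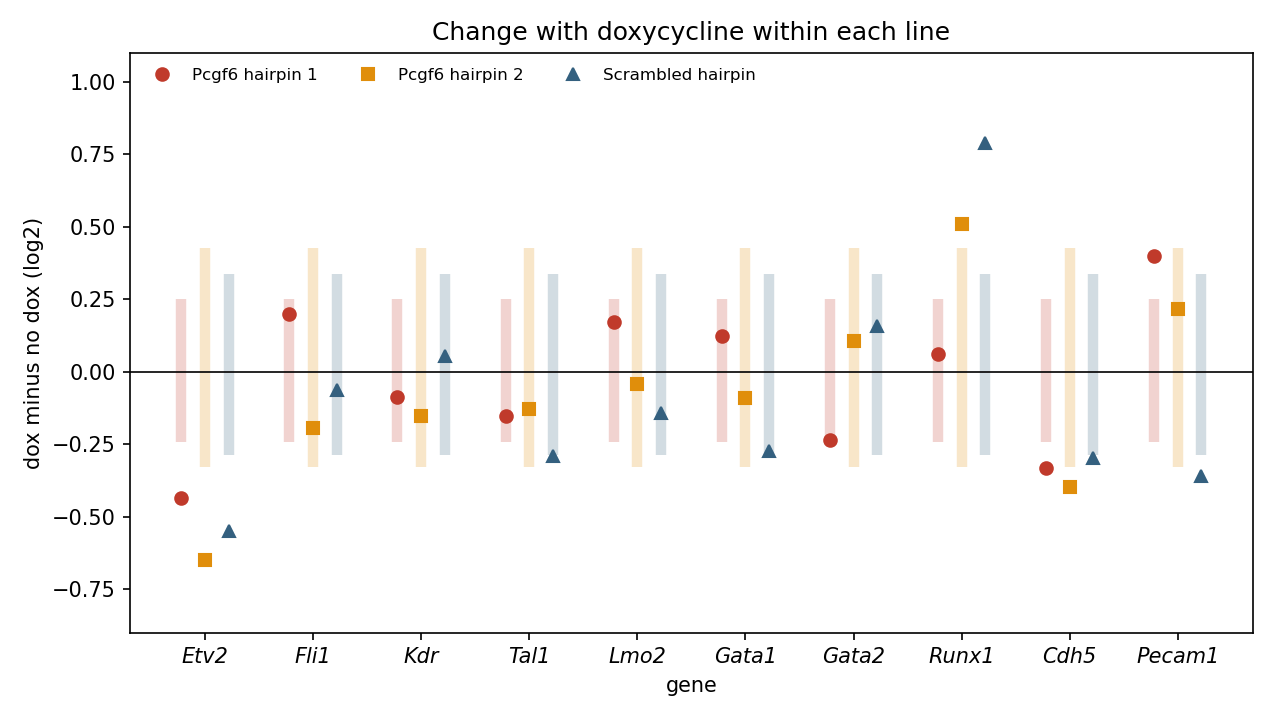
Dox minus no dox (log2) within each hairpin line, 1 symbol per line and gene; each pale bar spans the 5th to 95th percentile of all 19938 genes in that line. Etv2 and Cdh5 lie below the bar in all 3 lines, and Pecam1 lies above 0 in both Pcgf6-hairpin lines and below 0 in scrambled.

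Of the 10 genes, 0 passed the limma threshold in any of the 4 comparisons. For induced against uninduced Pcgf6 hairpins the background was 0.201% of genes called (40 of 19938), with 38 higher (0.191%) and 2 lower (0.01%). For the difference from the scrambled response it was 0.0702% (14 genes), of which 0.0652% were higher and 0.00502% lower. At an unadjusted p under 0.05, 3 of the 10 genes (Etv2, Cdh5 and Pecam1) were reached in the first comparison, where the share of all genes was 8.75%. In the difference from scrambled the count was 2 (Runx1 and Pecam1), against 4.55% of all genes.

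The 10 genes were chosen with earlier results of these data known, so the following counts are descriptions only. Counting direction alone, 3 of the 10 genes (Etv2, Cdh5 and Tal1) were lower with dox in all 3 lines, against 18.5% of all genes. For 2 of the 10 (Etv2 and Cdh5) all dox arrays lay below all no-dox arrays, against 8.07% of all genes, and 0 lay wholly above, against 4.08%. At 1.5-fold, a count with no test, 1 gene was past the line in hairpin 2 (Etv2, lower, where 0.446% of all genes were lower and 2.17% higher) and 1 in scrambled (Runx1, higher, where 1.48% were higher and 0.211% lower). In hairpin 1, 0 genes were, with backgrounds of 0.627% higher and 0.241% lower. The median difference of the 10 genes over all lines was -0.04, beside -0.01 for all genes. Within lines the median of the 10 genes was -0.01 in hairpin 1, -0.11 in hairpin 2 and -0.21 in scrambled, beside 0.00098, -0.02 and -0.01 for all genes. Of the 10 genes, 5 were lower with dox in hairpin 1, 7 in hairpin 2 and 7 in scrambled.

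**Figure D4:**
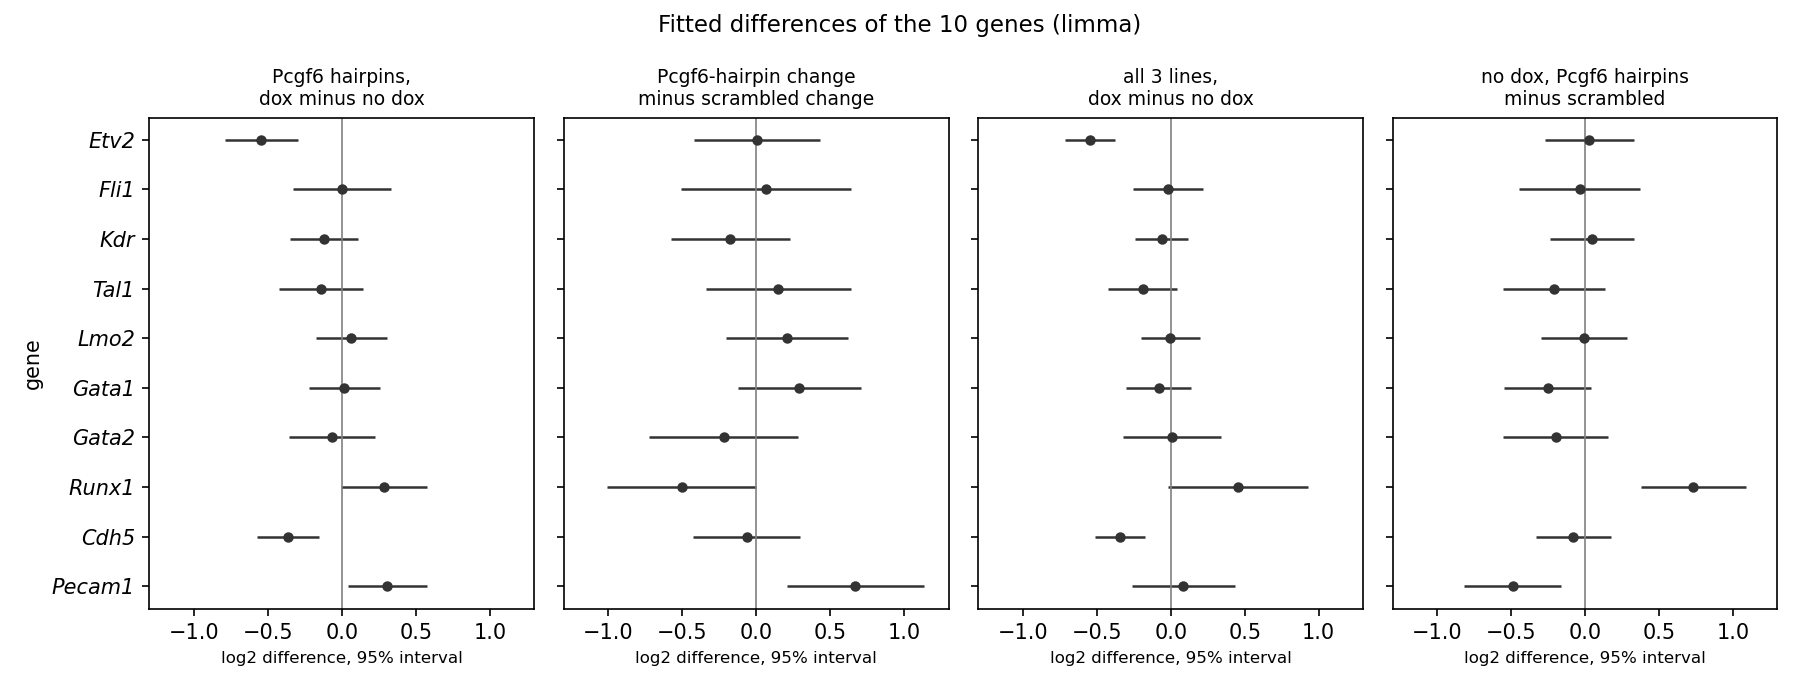
Fitted log2 differences of the 10 genes with 95% intervals from limma, in 4 panels: Pcgf6 hairpins with minus without dox (n = 2 each), that change minus the scrambled change, all lines with minus without dox (n = 3 each), and uninduced Pcgf6 hairpins minus uninduced scrambled (n = 2 and 1). For Etv2 the difference over all lines is -0.55 and the difference from scrambled is 0.01.

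The pattern of Etv2 over the 6 arrays was also compared with that of 2892 other genes whose values spanned at least 0.5. The closest by Pearson's r, given as a description over 6 arrays, were Reg1 (0.979), which encodes a secreted pancreatic protein, the neuropeptide gene Nms (0.973) and Rragb (0.971), a Rag GTPase gene of amino acid sensing. Reg1 and Nms were dim, with means of 5.43 and 6.07 at percentiles 16.8 and 25.9 of all genes. Rragb measured 9.43, 9.55 and 9.47 with dox in the hairpin 1, hairpin 2 and scrambled lines, against 9.72, 9.95 and 9.79 without. For Cdh5, whose range of 0.46 fell short of that limit, the correlation with Etv2 was 0.933.

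Further genes of the same programme came from 4 lists. Of 16 other blood transcription factors, all 16 were measured, 0 passed in either direction in the comparison of Pcgf6 hairpins with and without dox, and the median difference was -0.04, beside -0.01 for all genes. Myb, a factor of definitive blood progenitors, was the member with the strongest difference. It measured 8.77, 8.61 and 8.79 with dox in the hairpin 1, hairpin 2 and scrambled lines, against 9.20, 9.10 and 9.16 without. All dox arrays of Myb lay below all its no-dox arrays, as they did for 8.07% of all genes. The Pcgf6-hairpin difference of Myb was -0.47 (SE 0.10, limma adjusted p = 0.277), and that over all lines was -0.43 (SE 0.07, limma adjusted p = 0.644).

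Among partners of the TAL1 complex, Ldb1 differed by -0.13, -0.11 and 0.05 in hairpin 1, hairpin 2 and scrambled. Lyl1, a close relative of Tal1, differed by -0.0035, -0.40 and 0.02, and the ETS gene Erg by 0.12, -0.42 and -0.13. For Lyl1 and Erg the line farthest from 0 was hairpin 2.

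All 23 endothelial genes were measured and 0 passed, with a median of -0.02 for Pcgf6 hairpins with against without dox. Kit, the stem cell factor receptor of blood progenitors and also of germ cells, measured 10.29 and 10.16 with dox in the Pcgf6-hairpin lines, against 9.66 and 9.59 without. In the scrambled line Kit measured 10.10 with and 10.07 without dox. Before induction Kit in the Pcgf6-hairpin lines minus Kit in the scrambled line, a single array, was -0.45. The next 2 values of Kit share those uninduced Pcgf6-hairpin arrays. Its difference was 0.60 with the hairpins (SE 0.09, limma adjusted p = 0.105), and the difference from the scrambled response was 0.58 (limma adjusted p = 0.915).

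Cd34, a sialomucin of endothelium and progenitors that fibroblasts also express, measured 8.52, 8.25 and 7.80 with dox and 8.11, 7.76 and 7.27 without, in hairpin 1, hairpin 2 and scrambled. It was higher with dox by 0.41, 0.49 and 0.53, and 15.2% of all genes were higher in all 3 lines. Its level differed between lines in the order of hairpin 1, hairpin 2 and scrambled. Over all lines the Cd34 difference was 0.48 (limma adjusted p = 0.6755, and 0.2475 with the line as a block). The VEGF co-receptor gene Nrp1 differed by 0.09, 0.80 and 0.98, beside fibroblast marker differences that were also smallest in hairpin 1 (12 of 19 markers higher, against 19 of 19 in each other line). Plvap, a protein of endothelial diaphragms, differed by -0.26, -0.27 and -0.04. Whether feeder RNA had a part in the Cd34 and Nrp1 values was not tested.

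Of 14 upstream signals, all were measured and 0 passed. Their median was 0.26 for the Pcgf6 hairpins and 0.24 over all lines, beside -0.01 for all genes in each. Of these, 7 were higher with dox in all 3 lines, against 15.2% of all genes. Vegfc, a lymphatic and vascular growth factor, differed by 0.25, 0.75 and 0.16 in hairpin 1, hairpin 2 and scrambled. Fgf2 differed by 0.13, 0.56 and 0.72, and Wnt3, a primitive streak signal, by 0.22, 0.52 and 0.56. Pdgfra, a mesoderm and fibroblast receptor, differed by -0.07, 0.88 and 0.65. The fibroblast marker mean differed by less in hairpin 1 than in the other lines, and its part in these values was not tested.

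Of 14 products of differentiated blood cells, 10 were measured and 0 passed, with a median of -0.07 for the Pcgf6 hairpins. The embryonic globin gene Hbb-bh1 measured between 4.58 and 4.70 on the dox arrays, against 4.53 to 4.85 on those without. Hba-x, another embryonic globin gene, differed by 0.10, -0.31 and -0.01 in hairpin 1, hairpin 2 and scrambled. Epor, the erythropoietin receptor, differed by -0.15, -0.19 and 0.28, and the granulocyte gene Mpo by -0.15, -0.45 and -0.24. Mpo was the 1 gene of these 10 that was lower with dox in all 3 lines, against 18.5% of all genes. Its difference over all lines was -0.28 (SE 0.10, limma adjusted p = 0.673). Mpo was dim, with a mean of 6.08 at percentile 26.0 of all genes.

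**Figure D5:**
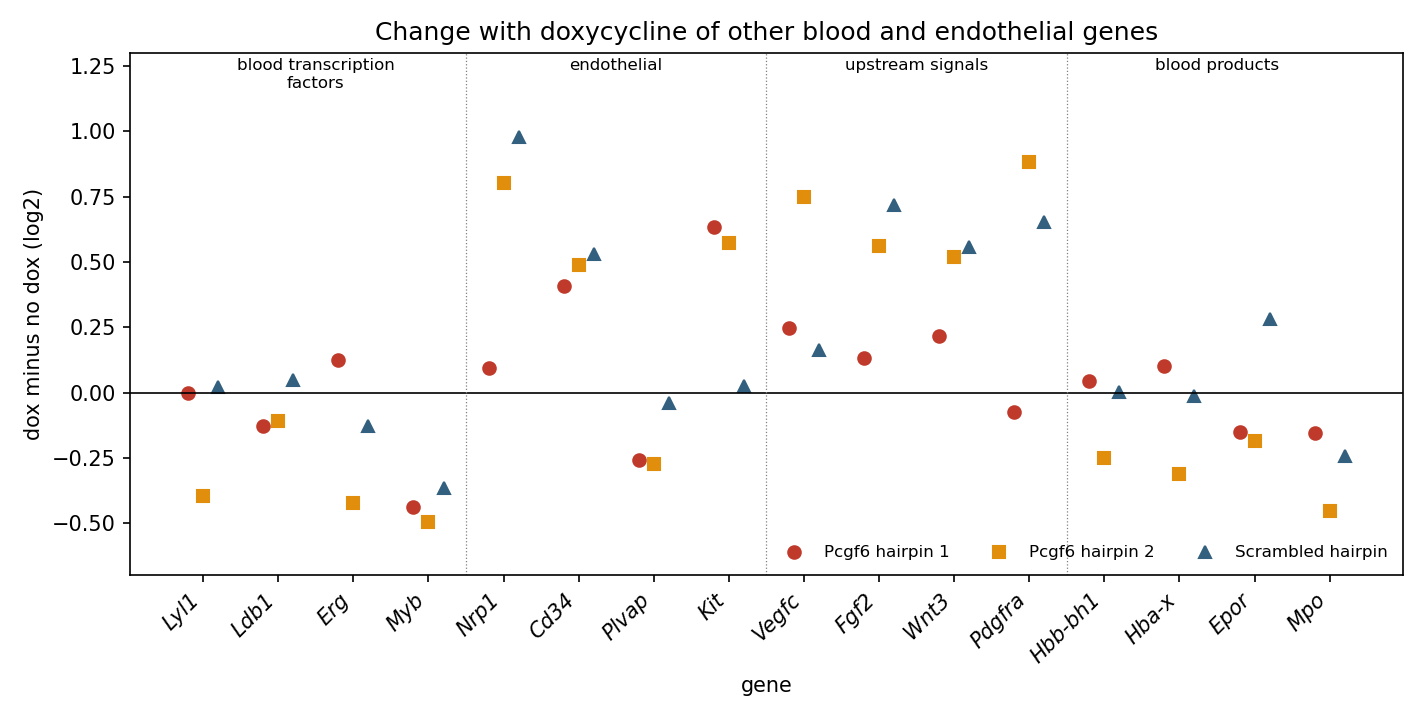
Dox minus no dox (log2) within each hairpin line for the 4 genes with the strongest Pcgf6-hairpin difference in each further list, 1 symbol per line. Myb lies below 0 and Cd34 above 0 in all 3 lines, whereas Kit lies above 0.5 in both Pcgf6-hairpin lines and at 0.03 in scrambled. Without dox Kit measured 9.66 and 9.59 in the Pcgf6-hairpin lines and 10.07 in scrambled.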

How the data were processed

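Gene expression was measured on 6 arrays. The deposited values are log2 expression. Affymetrix Power Tools and the RMA method are named for them in the submitters' processing notes; versions and options are not given in the sources used here. RMA removes a change shared by most genes. Of 35556 probe sets, 21789 had 1 gene symbol, 1621 several and 12146 none. Symbols were updated by Entrez identifier through RefSeq (21698 matched), and the brightest probe set of each gene was kept, giving 19938 genes without a filter on level. Sequences came from RefSeq, build GRCm38.p6; protein sequences were not used here.

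Differences were tested with limma 3.58.1 in R 4.3.3, two-sided, with Benjamini-Hochberg adjustment over all genes and a threshold of 0.05. A model with 1 mean per group (2 residual and 4.44 prior degrees of freedom) served 3 comparisons, and a 2-group model (4 and 3.66) compared dox with no dox over all lines. The single scrambled arrays were taken to vary like the hairpin groups. Arrays within a group came from different hairpin lines, so the SD, SE and p-values include spread between lines. Over all lines they also include differences between Pcgf6 and scrambled hairpins, unless the line was a block. Nothing states separate cultures, so part of the spread may be technical. SE are moderated. The scripts were tested on simulated data with known changes.

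The hairpin line pairs arrays: deviations of same-line arrays from their group means correlated at 0.176, 0.323 and 0.377 over 3 lines, and at 0.181 within the Pcgf6 hairpins. Array correlations ran from 0.991 to 0.996 and at most 0.0984% of values were identical, so no array counted as a duplicate. The members and lists were chosen with earlier results of these data known. Named genes were the 10 members, Pcgf6, the 4 genes of each list with the strongest Pcgf6-hairpin difference and the 3 genes closest to Etv2. Alternatives changed the scaling, the filter, the variance trend, the probe set rule, the block and the arrays included.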

Additional observations from a re-analysis of the deposited data

Results flagged for a closer look

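For Pecam1 and Kdr both Pcgf6-hairpin lines had a difference with dox of one sign and the scrambled line of the other, as did 23.4% of all genes. The response of the Pcgf6 hairpins minus that of scrambled was 0.67 for Pecam1 (SE 0.19, limma adjusted p = 0.955) and -0.17 for Kdr (SE 0.17, limma adjusted p = 0.999). Pecam1 measured 0.40 and 0.22 in the hairpin 1 and hairpin 2 lines and -0.36 in scrambled, and Kdr measured -0.09, -0.15 and 0.05. With 1 Pcgf6-hairpin array left out, the Kdr value ran from -0.25 to -0.098 (without the hairpin 2 array with dox), and the Pecam1 value from 0.54 to 0.80. The scrambled response is 1 array against 1, and neither difference passed the test.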

How the results depend on the processing

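In the 4 comparisons, 0 of the 10 genes were called under any alternative run. Of 392 member values, 368 kept their direction and side of the threshold. Cdh5, Tal1, Lmo2, Gata1, Gata2, Kdr and Fli1 lay among the dimmer 50% of genes, so the run without those genes did not test them. Etv2 over all lines ran from -0.60 to -0.49 with 1 array left out (limma adjusted p between 0.122 and 0.943 over all alternatives), Cdh5 from -0.39 to -0.31 (0.188 to 0.943), and Runx1 from 0.21 to 0.63. The hairpin as a replicate block moved the genes called in the difference from scrambled to 23 (14 as reported) and those called with the Pcgf6 hairpins to 54 (40 as reported). Over all lines 0 genes were called with the line as a block, and no block changed the call of any of the 10 genes. Genes called with the Pcgf6 hairpins (40 as reported) were 62 with an intensity trend, 7 once the dimmer 50% of genes were left out, 16 with the fibroblast covariate, chosen after seeing the data, and 14 to 26 with 1 array left out. The difference from scrambled called 4 genes with median centring, 4 without the dimmer 50%, and 0 to 4 with 1 array left out. Over all lines 54 genes passed without the scrambled array with dox, 0 with any other single array left out, and 40 without the scrambled line. Small values changed sign as follows. With the Pcgf6 hairpins and 1 array left out, Lmo2 ran from -0.033 to 0.16, Gata1 from -0.086 to 0.12, Gata2 from -0.22 to 0.095 and Fli1 from -0.20 to 0.20. In the difference from scrambled, Etv2 ran from -0.10 to 0.11 and Fli1 from -0.13 to 0.26. Over all lines Lmo2 ran from -0.054 to 0.063, Gata1 from -0.17 to 0.0032, Gata2 from -0.13 to 0.086, Fli1 from -0.13 to 0.074 and Pecam1 from -0.060 to 0.25. Without the scrambled line Lmo2 was 0.065, Gata1 0.016, Gata2 -0.064 and Fli1 0.0020. Lmo2 was 0.0079 with median centring and Fli1 0.0043 with the fibroblast covariate. Between uninduced lines Etv2 was -0.013 with quantile normalization and -0.0083 with median centring. With 1 array left out there, Etv2 ran from -0.081 to 0.14, Lmo2 from -0.10 to 0.093 and Fli1 from -0.24 to 0.16. The cause of these shifts was not tested. With 1 array per scrambled condition, the interval of Etv2 against the scrambled response spans -0.42 to 0.43.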

Other observations

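Macrophage and leukocyte markers, a list that does not overlap the 10 genes, separated the hairpin 2 line from the others. Their mean was 7.63 with and 7.42 without dox in hairpin 2, against 7.07 and 7.13 in hairpin 1 and 7.05 and 6.97 in scrambled. With dox 11 of the 12 markers were higher in hairpin 2, 4 in hairpin 1 and 9 in scrambled. The mean of the 8 measured erythroid markers stayed between 6.01 and 6.18 on all 6 arrays.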
